A study of Mus musculus with 6 samples.

Results

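The nuclear genes for the mitochondrial respiratory chain and for ATP synthase were described in mouse leukemia lines with and without inhibition of FGFR1. Members were chosen by name alone: every entry of the deposited table whose symbol begins with Ndufa, Ndufb, Ndufc, Ndufs or Ndufv and a number, is Sdha to Sdhd, Cycs or Cyc1, or begins with Uqcr, Cox4 to Cox8 or Atp5, apart from pseudogene rows, provided its FPKM averaged at least 1 across the libraries. FPKM are fragments scaled by transcript length and by the mapped fragments of the library. Of 83 entries that matched, 81 were kept, among 17169 entries in all and 14232 at that minimum. They comprised 35 genes of complex I, 4 of complex II, 9 of complex III, cytochrome c (Cycs), 14 of complex IV, 15 of ATP synthase (complex V) and 3 that the names catch but that encode no subunit of these complexes (Cox4nb, Atp5s and Atp5sl). Ndufa4, named after complex I, was placed in complex IV, where its protein is known to reside. The entries left out were Atp5l2, just outside the minimum at a mean of 0.933 FPKM, and the pseudogene row Atp5l-ps1. Just inside it lay Cox6a2, at a mean of 2.28 FPKM.

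The study compared 3 cell lines, BBC, ZNF and BCRF8C, each derived from the bone marrow of diseased Balb/c mice that had SCLL (stem cell leukemia and lymphoma), in which a chromosome rearrangement joins FGFR1's kinase part to another protein. Cells received BGJ398 (infigratinib, which inhibits FGFR kinases) or the solvent DMSO during 24 h. Each line gave 1 library per agent, which makes 3 BGJ398 and 3 DMSO libraries and leaves a line without replicates. The dose was 30 nM in BBC, 3 nM in ZNF and 1.5 nM in BCRF8C if the protocol's doses follow its list of lines, and dose and line cannot be told apart. The fusion partner in each line is not given in the sources used here.

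Cells make most of their ATP by passing electrons from NADH and succinate along the respiratory chain. Complexes I and II feed electrons into ubiquinone, complex III passes them to cytochrome c, and complex IV gives them to oxygen, while complexes I, III and IV pump protons that drive ATP synthase. Most subunits are encoded in the nucleus, made in the cytosol and imported, but the mitochondrial genome encodes a few core subunits of complexes I, III, IV and V, so that assembly draws on both genomes. The nuclear factors NRF1, GABP (an ETS factor) and YY1, and the coactivators of the PGC-1 family, are known regulators of these genes, and MYC is known to raise mitochondrial gene expression in growing cells.

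The lines carried the marks of different lineages. In DMSO, BBC expressed the pre-B gene Igll1 (546 FPKM), and ZNF expressed the T cell receptor gene Cd3g (335 FPKM). In BCRF8C with DMSO the B and T genes of the lists lay below 1 FPKM apart from Lck (3.12 FPKM) and Thy1, and Thy1, a surface marker shared by several cell types, reached 92.3 FPKM. Summed over the list, 7 B lineage genes came to 1384 FPKM in BBC with DMSO and 693 FPKM with BGJ398, and to at most 9.10 FPKM in the other libraries, where Cd79b, Igll1 and Vpreb1 were listed at 0. The 5 T lineage genes with an entry came to 779.9 and 495 FPKM in ZNF and to 44.5 to 95.6 FPKM elsewhere. Among them Cd8a went the other way in ZNF, from 7.34 to 20.3 FPKM, and was called higher across the lines (limma adjusted p = 0.0427). Myeloid markers (2 entries) came to at most 5.97 FPKM, globins (2 entries) to 22.5 FPKM in BBC with DMSO and 0 in ZNF and BCRF8C, and mast cell genes had no entry. The stromal collagens Col1a1 and Col1a2 together went from 2.82 to 6.56 FPKM in BBC, 0.372 to 3.20 in ZNF and 1.17 to 14.9 in BCRF8C. The part of other cell types in the results was not tested. Sequencing depth is unknown. The median FPKM of all genes tested was lower with BGJ398 in each line, 9.95 against 4.53 in BBC, 8.36 against 6.47 in ZNF and 9.03 against 4.92 in BCRF8C, and counts of called or lower genes are therefore set beside those over all genes.

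Sequences upstream of 6 of the genes are shown because these genes hold large and small falls and differ in known motifs. They are the 80 bases before the RefSeq start (GRCm38.p6, 5′ to 3′ on the gene's strand, which is the minus strand for all 6). Capitals mark the NRF1 motif (GCGC, then any base, then TGCGC) on either strand or the E-box CACGTG, the palindrome bound by MYC and related factors. Atp5g1, Atp5g2 and Atp5g3 encode the same mature c-ring protein of ATP synthase, Uqcr11 and Atp5k are small subunits with large falls, and Sdha had the smallest fall of complex II.
Atp5g1, chr11:96075632-96075711: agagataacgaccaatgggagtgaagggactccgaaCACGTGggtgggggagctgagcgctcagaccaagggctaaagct
Atp5g2, chr15:102671048-102671127: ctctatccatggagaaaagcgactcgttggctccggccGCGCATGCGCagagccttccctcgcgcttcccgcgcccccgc
Atp5g3, chr2:73911327-73911406: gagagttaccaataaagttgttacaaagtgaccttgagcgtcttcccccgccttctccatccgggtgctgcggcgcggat
Uqcr11, chr10:80406822-80406901: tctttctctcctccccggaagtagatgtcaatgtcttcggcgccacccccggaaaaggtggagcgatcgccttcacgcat
Atp5k, chr5:108434400-108434479: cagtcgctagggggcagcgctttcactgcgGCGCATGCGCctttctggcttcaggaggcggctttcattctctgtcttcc
Sdha, chr13:74350241-74350320: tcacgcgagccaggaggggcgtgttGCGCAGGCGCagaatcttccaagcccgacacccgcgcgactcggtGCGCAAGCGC

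Within these windows Atp5g1 held an E-box and no NRF1 motif, Atp5g2 and Atp5k each held a single NRF1 motif, Sdha held a pair of them, and Atp5g3 and Uqcr11 held neither. Promoter windows of 300 bases (250 before and 50 after the start) were found by symbol for 64 of the 78 subunit genes, in 69 windows. Windows on chromosome 18, where Atp5a1 lies, were left out of all sets, and Cox4nb, Atp5s and Atp5sl were not searched. Other subunit genes, among them Cyc1, Uqcrq, Cox4i1 and Ndufs1, were not matched. The NRF1 motif was present on either strand in 26.1% of the windows of these genes, in 9.83% of the windows of all genes tested and in 4.60% of all windows of the same length. The YY1 motif AANATGGCG was in 14.5%, 4.91% and 2.38% of the same sets, and the ETS motif CCGGAAG in 23.2%, 17.3% and 8.86%. The SP1 motif GGGCGG was in 37.7% of the genes' windows against 60.9% for genes tested, and the E-box in 8.70% against 9.92%. These matches describe letters in a window and not binding, and the motifs were searched without regard to overlap with each other.

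All 81 genes were listed above 0 in every library, although Cox7a1 was listed at the table's lowest value above 0, 0.001 FPKM, in BCRF8C with BGJ398. Their summed level was 16462 FPKM in BBC with DMSO and 2790 FPKM with BGJ398, a ratio of 5.90. In ZNF the sum went from 15641 to 7678 FPKM, a ratio of 2.04, and in BCRF8C from 20252 to 3681 FPKM, a ratio of 5.50. As a share of the summed FPKM of entries with transcripts of at least 300 nt (a limit set after the values were seen, because the other entries make up a varying part of the total, which was 4518739 FPKM in ZNF with DMSO, 715551 of it from the longer entries, and 607561 FPKM in BCRF8C with BGJ398, 433018 of it from them), the genes made up 1.96% in DMSO and 0.723% with BGJ398 in BBC, 2.19% and 1.12% in ZNF, and 2.40% and 0.850% in BCRF8C. As a share of all entries the sum was lower with BGJ398 in BBC (0.784% to 0.336%) and BCRF8C (1.15% to 0.606%) but higher in ZNF (0.346% to 0.509%), where a single entry of 1740000 FPKM was part of the DMSO total. In a bulk library fewer cells of a type and less RNA per cell cannot be told apart.

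**Figure D1:**
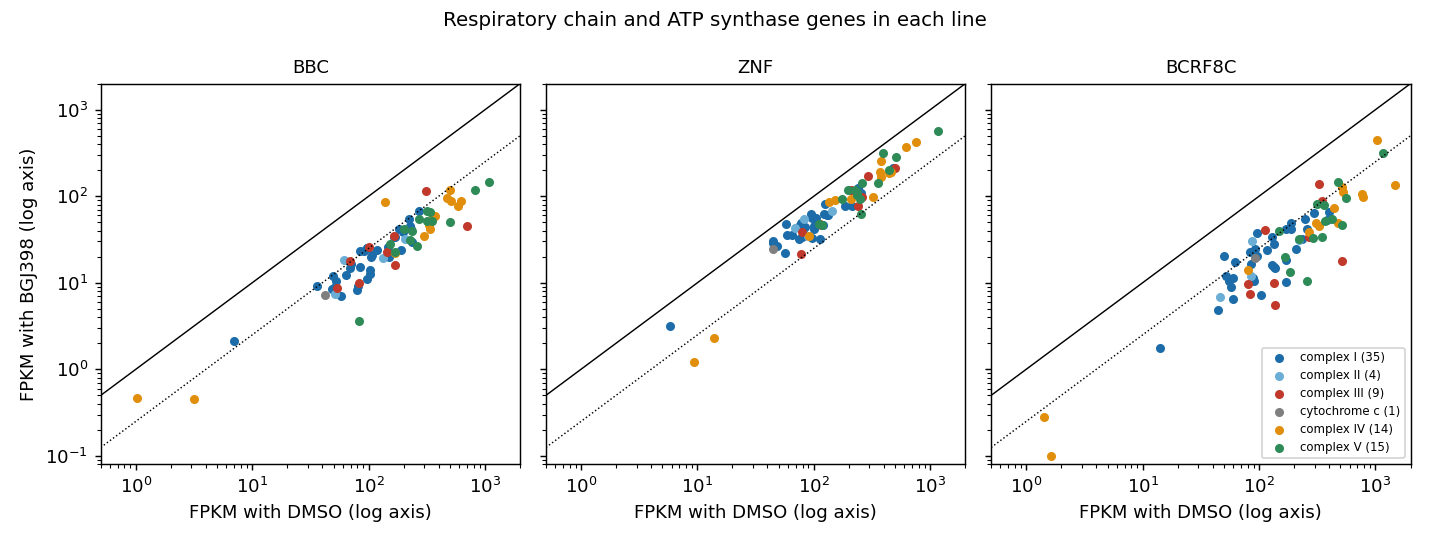
FPKM of the 78 subunit genes with DMSO (horizontal, log axis) and BGJ398 (vertical, log axis) in each line, coloured by complex. The solid line marks equal levels and the dotted line a 4-fold lower level with BGJ398, and 1 value of 0.001 FPKM (Cox7a1 in BCRF8C) is drawn at 0.1. Most points lie below the dotted line in BBC and BCRF8C and between the lines in ZNF.

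Across the lines, 70 of the 81 genes fell with BGJ398 and 0 rose (limma on log2(FPKM + 1) with the line as a block, two-sided, Benjamini-Hochberg adjusted p under 0.05 over all 14232 genes tested), with 79 at an unadjusted p under 0.05. Among all genes tested 30.2% fell and 6.61% rose, and 7812 of the 14232 had an unadjusted p under 0.05. Such an unadjusted count over all genes is given for this fit alone. The adjusted p of the 70 lay between 0.0348 and 0.0464, close to the threshold. The median log2 ratio of the 81 genes was -1.97 (SD of the 3 line medians 0.86), against -0.69 for all genes tested. In 72 of the 81 the lowest DMSO library lay above the highest BGJ398 library (35.1% of all genes tested), and 80 were lower in each of the 3 lines (55.7%). The calls rested on particular lines and on the scale: limma called 0 members without BBC (19 at an unadjusted p under 0.05) and 8 without BCRF8C (52), and 0 after median-of-ratios scaling of the libraries (71), quantile normalization (36) or removal of the trend on expression (25). Few genes of any kind were called in most of these fits: over all 14232 genes limma called lower 0 without BBC, 852 without BCRF8C, and 1, 1 and 0 after the 3 rescalings. Of the 62 genes whose locus overlaps no other entry, 54 fell, with a median of -2.02.

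The response was smaller in ZNF. The median log2 ratio of the 81 genes was -2.38 in BBC, -0.999 in ZNF and -2.57 in BCRF8C, where all genes tested had medians of -0.91, -0.37 and -0.76. At least 2-fold lower with BGJ398 were 79 of the 81 genes in BBC (46.5% of all genes tested), 40 in ZNF (14.2%) and 79 in BCRF8C (42.4%). None was at least 2-fold higher in any of the 3 lines. For 77 genes the log2 ratio was least negative in ZNF, and with BGJ398 73 genes had their highest level in ZNF. In DMSO the order was different, with 42 genes highest in BCRF8C, 20 in ZNF and 19 in BBC. With 1 library per line and agent the difference between lines has no replicate check and was not tested.

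**Figure D2:**
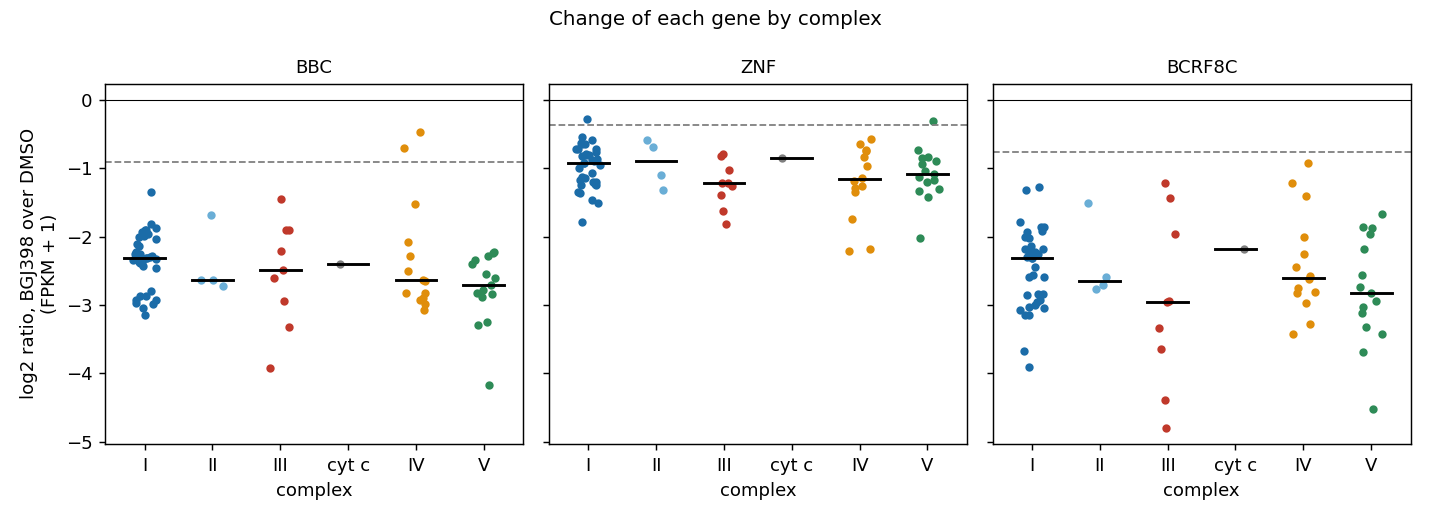
Log2 ratio of BGJ398 over DMSO on FPKM + 1 (vertical) for each gene, by complex (horizontal) and line. Black bars are the median of a complex and the dashed grey line is the median of all genes tested, and every complex median lies below it in each line.

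The complexes were close to each other. Their median log2 ratios ran from -1.92 (complex I) to -2.50 (complex III), a smaller spread than that between the lines within each complex (SD of the line medians 0.80 for complex I, 1.01 for II, 0.90 for III, 0.84 for IV and 0.98 for V). That SD does not measure differences between complexes within a line. In BBC, ZNF and BCRF8C complex I had medians of -2.31, -0.92 and -2.31. Those of complexes III (-2.49, -1.21 and -2.95), IV (-2.64, -1.16 and -2.60) and V (-2.71, -1.08 and -2.83) were lower in each line. Complex II was lower in BBC and BCRF8C but not in ZNF (-2.63, -0.89 and -2.65). The summed FPKM of a complex with DMSO was 5.24 (complex I), 5.82 (II), 6.08 (III), 5.78 (IV) and 6.64 (V) times that with BGJ398 in BBC, 2.05, 1.93, 2.27, 1.99 and 2.01 times in ZNF, and 5.63, 5.45, 5.70, 5.41 and 5.50 times in BCRF8C. Within a line the sums of the complexes thus changed by similar factors, and the differences between complexes were not tested.

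Complex I, the NADH dehydrogenase through which most electrons enter the chain, had a median log2 ratio of -1.92, or -1.23 relative to all genes, and 33 of its 35 genes fell. The nuclear core subunits, which carry the flavin and the iron-sulfur clusters, all fell (7 of 7) with a median of -1.68. Ndufv1, the subunit that binds NADH and flavin (chromosome 19, 4007497 to 4012806 in NCBIM37), measured 48.5 (BBC), 56.9 (ZNF) and 44.3 FPKM (BCRF8C) with DMSO against 8.58, 21.9 and 4.84 FPKM with BGJ398. All 3 DMSO levels were above all 3 BGJ398 levels, and Ndufv1 had the largest fall of the core (log2 ratio -2.22, SE 0.41, n = 3 lines, limma adjusted p = 0.0348). Ndufs1, the largest subunit, which carries iron-sulfur clusters and whose locus overlaps 3 other entries, measured 52.3, 80.7 and 61.9 FPKM with DMSO against 10.4, 45.8 and 17.2 FPKM with BGJ398, and was highest in ZNF with either agent. Ndufs8, which holds iron-sulfur clusters on the path to ubiquinone, separated the lines more, at 92.0 to 23.5 FPKM in BBC and 59.6 to 6.42 FPKM in BCRF8C, linear ratios of 3.92 and 9.28.

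The accessory subunits of complex I surround the core and are needed for its assembly and stability. Of 28, 26 fell, with a median log2 ratio of -1.95 and a range of -2.69 to -1.38. The largest fall was in Ndufb6, a subunit of the membrane arm, which measured 79.9 (BBC), 101 (ZNF) and 104 FPKM (BCRF8C) with DMSO against 8.15, 42.3 and 7.24 FPKM with BGJ398 (log2 ratio -2.69, SE 0.53, limma adjusted p = 0.0348). The levels of the groups did not overlap, but the locus overlaps 2 other entries, so reads may be shared. Ndufa3, an accessory subunit with levels up to 479.9 FPKM, was at 228, 479.9 and 402 FPKM with DMSO and at 45.9, 212 and 65.9 FPKM with BGJ398 in BBC, ZNF and BCRF8C. Here the ZNF library with BGJ398 stayed close to the DMSO level of BBC. Ndufc2, a small membrane subunit, measured 151, 255 and 169 FPKM with DMSO against 19.7, 110.4 and 41.5 FPKM with BGJ398. The genes that missed the threshold were Ndufc1, at 57.9 FPKM with DMSO and 47.4 FPKM with BGJ398 in ZNF (log2 ratio -1.71, limma adjusted p = 0.0537), and Ndufb4, at 45.0 and 30.7 FPKM there (log2 ratio -1.38, limma adjusted p = 0.0502). Ndufa11, a membrane subunit, had the lowest levels of the complex, between 1.78 and 14.1 FPKM.

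Accessory genes of complex I also differed in which line responded most. Ndufb11, of the membrane arm, measured 196, 96.5 and 170.0 FPKM with DMSO in BBC, ZNF and BCRF8C and 38.2, 33.1 and 10.3 FPKM with BGJ398, linear ratios of 5.14, 2.91 and 16.4. Ndufb3, also of the membrane arm, had ratios of 3.64, 1.58 and 8.87, again largest in BCRF8C. The ratio was instead largest in BBC for Ndufb2, at 97.5, 73.5 and 51.6 FPKM with DMSO against 10.9, 44.2 and 11.9 FPKM with BGJ398 (ratios 8.92, 1.66 and 4.32), and for Ndufa12, a subunit of the matrix arm, with ratios of 7.84, 1.56 and 4.71. Ndufs5, on the side of the intermembrane space, had ratios of 4.93, 2.21 and 2.53, so that ZNF and BCRF8C were close. With 1 library per line and agent these differences between lines have no replicate check. The loci of Ndufb11 and Ndufb2 overlap 1 and 2 other entries.

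Complex II, succinate dehydrogenase, is the part of the chain that is also an enzyme of the citric acid cycle and is encoded in the nucleus throughout. All 4 genes fell, with a median log2 ratio of -2.05. Sdhb, the iron-sulfur subunit, measured 132 (BBC), 89.5 (ZNF) and 84.8 FPKM (BCRF8C) with DMSO against 19.2, 35.2 and 12.1 FPKM with BGJ398 (log2 ratio -2.25, SE 0.43, limma adjusted p = 0.0348). The membrane anchors Sdhd (205 to 32.2 FPKM in BBC, 144 to 66.9 in ZNF and 219 to 31.4 in BCRF8C) and Sdhc (51.0 to 7.37, 82.5 to 54.6 and 46.0 to 6.77 FPKM) followed at log2 ratios of -2.16 and -1.94. Sdhc in ZNF with BGJ398 was higher than in BBC or BCRF8C with DMSO. Sdha, the flavoprotein that oxidizes succinate (chromosome 13, 74459702 to 74487728 in NCBIM37), changed least, at 61.8, 69.6 and 87.6 FPKM against 18.5, 42.8 and 30.1 FPKM (log2 ratio -1.30, SE 0.39, limma adjusted p = 0.0446), and with the trend on expression removed its log2 ratio was 0.10. Subunits of the same enzyme thus spanned linear ratios of 2.91 to 7.02 in BCRF8C and of 3.34 to 6.92 in BBC.

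Complex III, the cytochrome bc1 complex, had the lowest median of the complexes for the mean of the lines, -2.50 on the log2 scale or -1.81 relative to all genes, and 8 of its 9 genes fell. In BBC its median, -2.49, was above those of complexes II (-2.63), IV (-2.64) and V (-2.71). Uqcr11, a small subunit of the membrane part (chromosome 10, 79865742 to 79869575 in NCBIM37), had the largest fall of all 81 genes. It stood at 698, 496 and 518 FPKM with DMSO in BBC, ZNF and BCRF8C, and at 45.1, 213 and 17.7 FPKM with BGJ398. The linear ratios were 15.5, 2.32 and 29.3, and the log2 ratio was -3.31 (SE 0.76, limma adjusted p = 0.0348), so the ZNF value stood far from the other lines. Cyc1, cytochrome c1, which hands electrons to cytochrome c, measured 83.4 (BBC), 112 (ZNF) and 136 FPKM (BCRF8C) with DMSO against 9.95, 47.9 and 5.53 FPKM with BGJ398 (log2 ratio -2.85, SE 0.62). The other redox subunit, the Rieske iron-sulfur protein Uqcrfs1, measured 69.1, 78.5 and 81.0 FPKM with DMSO against 17.8, 38.2 and 9.72 FPKM with BGJ398 (log2 ratio -1.95, SE 0.46). In both, BCRF8C had the lowest level with BGJ398.

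The small subunits Uqcr10 and Uqcrq, which pack around the redox core, had log2 ratios of -2.63 and -2.55. Uqcrq stood at 53.1, 78.2 and 83.2 FPKM with DMSO and at 8.61, 21.4 and 7.32 FPKM with BGJ398 in BBC, ZNF and BCRF8C, and Uqcr10 at 168, 239.7 and 269.9 FPKM with DMSO and at 15.9, 77.0 and 34.0 FPKM with BGJ398. The core proteins, which face the matrix, differed from each other. Uqcrc1 measured 144, 114 and 135 FPKM with DMSO against 22.8, 47.0 and 9.96 FPKM with BGJ398 (log2 ratio -2.50, SE 0.53), whereas Uqcrc2 measured 101, 208 and 112 FPKM with DMSO against 26.1, 117 and 40.8 FPKM with BGJ398 (log2 ratio -1.39, SE 0.42, limma adjusted p = 0.0462) and lay at 0.10 with the trend on expression removed. Uqcrh, the acidic hinge subunit, measured 310.0, 294 and 350.1 FPKM with DMSO against 113, 169 and 89.1 FPKM with BGJ398. The groups did not overlap, but Uqcrh missed the threshold (log2 ratio -1.40, limma adjusted p = 0.0644) and lay at 0.23 with the trend removed. Uqcrb, a matrix-side subunit whose locus overlaps 3 other entries, kept 139 FPKM of 324 in BCRF8C and 35.0 of 165 in BBC.

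Cycs, the mobile electron carrier that also triggers apoptosis when it leaves the mitochondrion, measured 42.6 (BBC), 44.8 (ZNF) and 92.3 FPKM (BCRF8C) with DMSO against 7.23, 24.4 and 19.5 FPKM with BGJ398 (log2 ratio -1.81, SE 0.42, limma adjusted p = 0.0348). The lowest DMSO level, in BBC, was above the highest BGJ398 level, in ZNF.

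Complex IV, cytochrome c oxidase, had a median log2 ratio of -2.10, and 10 of its 14 genes fell. Cox4i1, which takes part in regulation by ATP, measured 501 (BBC), 462 (ZNF) and 479.8 FPKM (BCRF8C) with DMSO against 118, 189 and 48.6 FPKM with BGJ398 (log2 ratio -2.22, SE 0.57, limma adjusted p = 0.0366), but the table merges its locus with 63 other entries. Cox5a and Cox5b, subunits on the matrix side, had log2 ratios of -2.33 and -2.07. Cox5a stood at 169, 90.7 and 267 FPKM with DMSO and 21.8, 34.9 and 38.9 FPKM with BGJ398, and Cox5b at 334, 372 and 531 FPKM with DMSO and 41.4, 189 and 110.5 FPKM with BGJ398. In both genes BBC had the lowest level with BGJ398, and the locus of Cox5a overlaps 2 other entries. Ndufa4, at 300.2, 325 and 308 FPKM with DMSO and 34.9, 96.8 and 49.1 FPKM with BGJ398, had the largest fall of the complex (log2 ratio -2.48, SE 0.48). Cox6b1, which bridges the monomers of the dimer on the side of cytochrome c, had a similar BBC and BCRF8C response (linear ratios 7.17 and 7.10) and went from 618 to 368 FPKM in ZNF.

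The genes of complex IV with the highest mean levels, Cox6c and Cox8a, were among those that did not pass the test. Cox8a stood at 506, 377 and 1475 FPKM with DMSO and at 88.7, 255 and 136 FPKM with BGJ398, with all DMSO levels above all BGJ398 levels and the smallest linear ratio, 1.48, in ZNF (log2 ratio -2.16, SE 0.70, limma adjusted p = 0.0520). Cox6c stood at 474, 748 and 1033 FPKM with DMSO and at 96.6, 419.7 and 445 FPKM with BGJ398 (log2 ratio -1.44, limma adjusted p = 0.0934, and 0.26 with the trend removed). Its BCRF8C library with BGJ398 nearly reached the DMSO level of BBC. Cox7a2l, a factor for supercomplexes of complexes III and IV, kept 85.4 of 139.5 FPKM in BBC and 86.2 of 135 FPKM in ZNF but 14.1 of 81.2 FPKM in BCRF8C (log2 ratio -1.26, limma adjusted p = 0.0842, and 0.19 with the trend removed). BCRF8C alone had a linear ratio above 2, at 5.74, and Cox7a2l was the sole member with a linear ratio under 2 in BBC.

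Several subunits of complex IV exist as isoform pairs of which one is known from heart and skeletal muscle. The ubiquitous Cox6a1 measured 588, 378 and 778 FPKM with DMSO against 76.8, 166 and 98.6 FPKM with BGJ398 (log2 ratio -2.36, SE 0.59), and Cox7a2 measured 370.2, 208 and 327 FPKM against 59.0, 93.6 and 45.4 FPKM (log2 ratio -2.20, SE 0.52). The muscle forms were low and highest in ZNF. Cox7a1 stood at 3.17, 14.01 and 1.65 FPKM with DMSO and at 0.450, 2.32 and 0.001 FPKM with BGJ398 (log2 ratio -1.70, SE 0.35, limma adjusted p = 0.0348), and Cox6a2 at 1.02, 9.27 and 1.44 FPKM with DMSO and 0.466, 1.21 and 0.284 FPKM with BGJ398 (log2 ratio -1.20, limma adjusted p = 0.0803). With Uqcrb and Atp5s they made up the 4 genes whose log2 ratio was not the least negative in ZNF, on FPKM + 1. On the linear scale ZNF had the largest ratio for Cox6a2, 7.64 against 2.20 and 5.06, whereas Cox7a1 had 7.05 in BBC and 6.03 in ZNF and only a floor value in BCRF8C. The log2 ratio of Cox7a1 was -3.08 with a pseudocount of 0.1 and -0.79 with one of 5, and limma did not call it without ZNF (adjusted p = 0.118). The isoforms Cox4i2, Cox6b2, Cox7b2, Cox8b and Cox8c have no entry and were not analysed here.

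ATP synthase had a median log2 ratio of -2.17, and 13 of its 15 genes fell. In the F1 head, Atp5b, the catalytic beta subunit, had the highest mean level of the 81 genes (its locus overlaps 4 other entries), at 1080.3, 1160.1 and 1153 FPKM with DMSO and 146, 565 and 317 FPKM with BGJ398. All DMSO levels were above all BGJ398 levels, but Atp5b did not pass the test (log2 ratio -1.92, SE 0.66, limma adjusted p = 0.0604). Its partner Atp5a1, the alpha subunit, measured 821, 439.8 and 561 FPKM with DMSO against 119, 200.02 and 94.5 FPKM with BGJ398 (log2 ratio -2.15, SE 0.57, limma adjusted p = 0.0376). In the central stalk, which rotates inside the head, Atp5e had the largest fall (log2 ratio -2.85, SE 0.46), at 169, 255 and 184 FPKM against 22.7, 61.9 and 13.3 FPKM, and Atp5c1 one of the smaller ones (log2 ratio -1.85, SE 0.52), at 234, 257 and 361 FPKM against 39.3, 142 and 79.1 FPKM. Atp5e was also the gene of ATP synthase with the largest ratio in ZNF, 4.12.

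The groups of subunits within ATP synthase had different medians, a difference that was not tested. The 3 c-ring genes had a median log2 ratio of -2.42, the 3 small membrane subunits Atp5k, Atp5j2 and Atp5l one of -2.25, and the 4 genes of the peripheral stalk, which holds the head still, one of -1.69. Atp5k stood at 495, 355 and 512 FPKM with DMSO and at 49.7, 141 and 46.6 FPKM with BGJ398 (log2 ratio -2.68, SE 0.59). In the peripheral stalk Atp5o, which joins the stalk to the top of the head, had the largest fall (log2 ratio -2.42, SE 0.48), at 227, 248.6 and 167 FPKM with DMSO against 31.2, 92.4 and 19.6 FPKM with BGJ398, and its locus overlaps 4 other entries. Atp5f1 (log2 ratio -1.66) and Atp5j (log2 ratio -1.72), also of the stalk, fell less. In the same stalk Atp5h kept 318 of 394 FPKM in ZNF, against 67.3 of 317 in BBC and 147 of 472 in BCRF8C. Atp5h did not pass the test (log2 ratio -1.40, limma adjusted p = 0.0911), and its log2 ratio was 0.26 with the trend on expression removed and 0.05 after quantile normalization.

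Atp5g1, Atp5g2 and Atp5g3 differ in their import sequences but give the same mature protein. Atp5g1 (chromosome 11, 95930166 to 95936984 in NCBIM37) measured 82.5 (BBC), 110.4 (ZNF) and 261 FPKM (BCRF8C) with DMSO against 3.64, 47.6 and 10.4 FPKM with BGJ398 (log2 ratio -3.297, SE 0.69, limma adjusted p = 0.0348), linear ratios of 22.6, 2.32 and 25.1. Atp5g2 measured 336, 513 and 349 FPKM with DMSO against 65.3, 286 and 34.1 FPKM with BGJ398 (log2 ratio -2.17, SE 0.61), and Atp5g3 measured 260.5, 233 and 369 FPKM against 26.4, 103 and 51.1 FPKM (log2 ratio -2.42, SE 0.55). Atp5g1 was thus the least abundant c-ring gene in all 6 libraries and had the largest ratio of the trio in each line. Its share of the trio's summed FPKM was 12.2%, 12.9% and 26.6% with DMSO in BBC, ZNF and BCRF8C and 3.82%, 10.9% and 10.8% with BGJ398. Among the 3 upstream windows printed above, that of Atp5g1 is the one with an E-box, at positions -44 to -39 from the start. Outside its printed bases Atp5g3 held an E-box at positions -238 to -233 and an NRF1 motif at positions 12 to 21, after the start. Promoter windows of Atp5l, Ndufa7 and Ndufv1 also held an E-box, and these genes had log2 ratios of -2.205, -2.24 and -2.22. A link between the E-box and the fall was not tested.

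**Figure D3:**
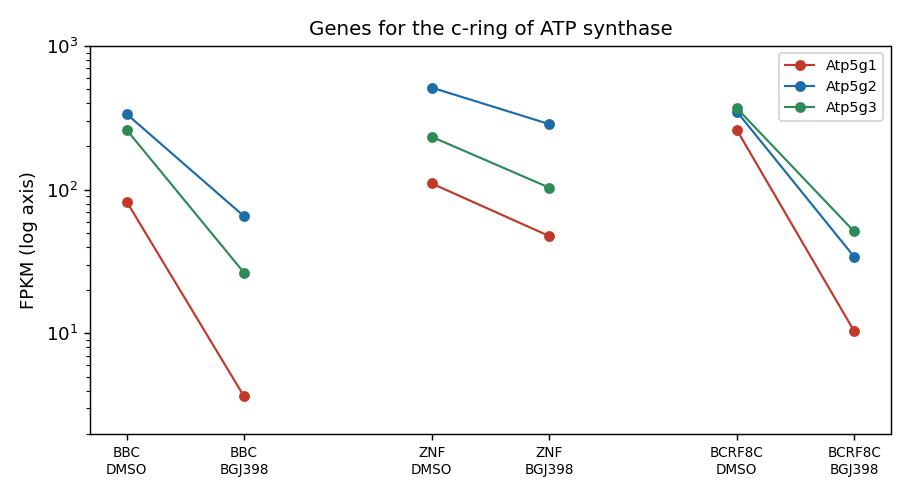
FPKM (vertical, log axis) of Atp5g1, Atp5g2 and Atp5g3 in each of the 6 libraries, with lines joining DMSO and BGJ398 of the same cell line. The Atp5g1 line falls most steeply in BBC (82.5 to 3.64 FPKM) and BCRF8C (261 to 10.4 FPKM) and runs close to parallel with the others in ZNF.

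The 3 genes caught by name alone had a median log2 ratio of -1.05 and were at most 24.4 FPKM in any library. Cox4nb, which encodes a subunit of a membrane protein complex of the endoplasmic reticulum and shares the merged locus of Cox4i1, was called (log2 ratio -1.05, SE 0.31, limma adjusted p = 0.0436). Atp5sl, linked to assembly of complex I, was not (log2 ratio -1.07, limma adjusted p = 0.0578). Atp5s was at 4.61, 2.47 and 1.58 FPKM with DMSO and 0.921, 2.001 and 2.36 FPKM with BGJ398, the sole member that was higher with BGJ398 in any line, BCRF8C (log2 ratio 0.38).

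Genes with higher levels had lower ratios on average, so the members were also set beside genes of like expression, as the distance of each log2 ratio from a lowess trend of all genes within the line. The members' median distance was -0.79 in BBC, -0.15 in ZNF and -0.76 in BCRF8C, and -0.55 for the mean of the lines. By complex it was -0.51 for complex I, -0.66 for II, -1.08 for III, -0.54 for IV and -0.59 for V. Below the trend in all 3 lines were 46 of the 81 genes, against 25.4% of all genes tested. These were 19 of 35 in complex I, 2 of 4 in complex II, 6 of 9 in complex III, 7 of 14 in complex IV, 9 of 15 in complex V, Cycs, and 2 of the 3 genes that encode no subunit. Below it in each line lay Uqcr11 (-2.11, -0.31 and -2.83 in BBC, ZNF and BCRF8C), Cyc1 (-1.39, -0.31 and -2.83), Atp5g1 (-2.74, -0.30 and -2.78), Uqcrq (-1.03, -0.996 and -1.81) and Atp5e (-1.11, -1.09 and -1.97). Below the trend were 79 of the 81 genes in BBC (6992 of all 14232), 51 in ZNF (7191) and 67 in BCRF8C (7015). None of the members passed limma on these distances (0 of 81, with 25 at an unadjusted p under 0.05 and a lowest adjusted p of 0.0976), nor did any of the 14232 genes.

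**Figure D4:**
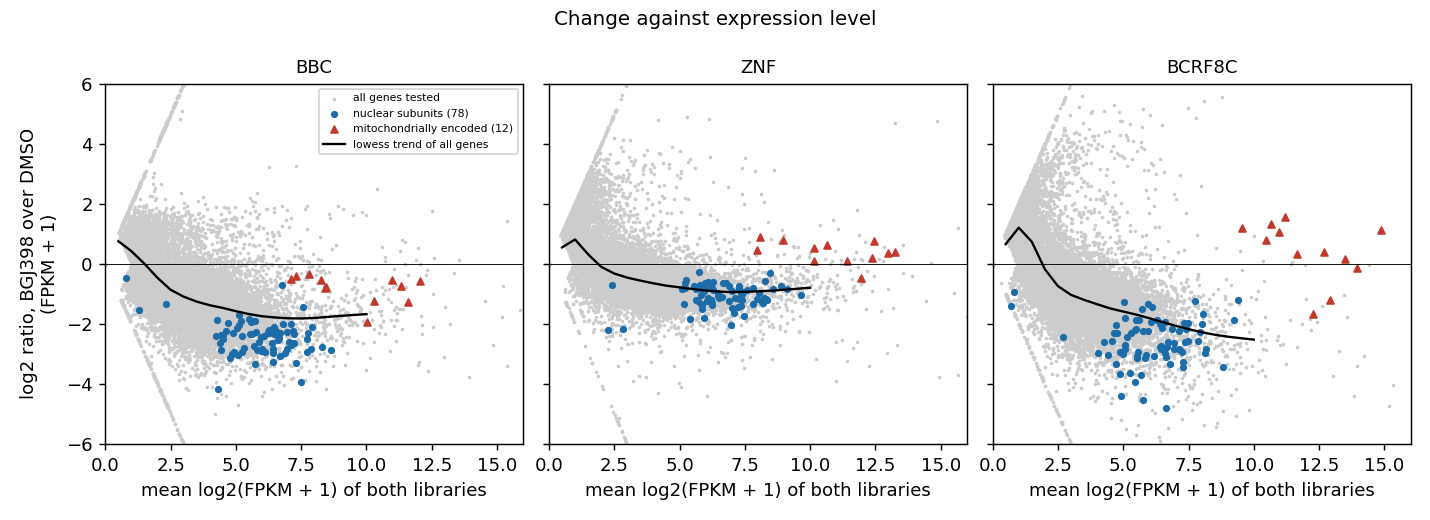
Log2 ratio of BGJ398 over DMSO (vertical, FPKM + 1) against the mean log2 level of the 2 libraries of a line (horizontal) for all genes tested (grey), the 78 nuclear subunit genes (blue) and 12 mitochondrially encoded mRNAs (red triangles), with the lowess trend in black; points beyond 6 on the vertical axis are not drawn. Most blue points lie below the trend in BBC and BCRF8C and around it in ZNF. The drawn trend ends at a mean log2 level of 10, and many red triangles lie beyond that end. By the fitted trend, 1 of the 12 mitochondrial mRNAs lay below it in BBC and 0 in ZNF and BCRF8C.

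The mRNAs from the mitochondrial genome, which encode partner subunits of the same complexes, were tested as a contrast to the nuclear genes. Of 12 tested 0 were called in either direction by limma, and 0 had an unadjusted p under 0.05. Again none was called after median-of-ratios scaling, quantile normalization or removal of the trend on expression, but 3, 5 and 6 then had an unadjusted p under 0.05, and with the trend removed their median was 1.86. Their median log2 ratio was -0.66 in BBC, 0.43 in ZNF and 0.60 in BCRF8C, where the 78 nuclear subunit genes had -2.40, -1.03 and -2.59. The mitochondrial median was higher by 1.74, 1.46 and 3.19, and within complexes I, III, IV and V it was higher in each line. Those complexes held 6, 1, 3 and 2 mitochondrial mRNAs, so the value for complex III is that of mt-Cytb alone. In complex IV, mt-Co1 (catalytic subunit 1) was at 5212, 8419.96 and 16707 FPKM with DMSO and 3484, 10992 and 15334 FPKM with BGJ398. It was lower with BGJ398 in BBC and BCRF8C and higher in ZNF, each by less than 2-fold, whereas Cox5a and Ndufa4 fell. Another mRNA of complex IV, mt-Co3, was at 4731, 7194 and 11640 FPKM with DMSO and 1962, 9188 and 5072 FPKM with BGJ398. It was thus more than 2-fold lower in BBC and BCRF8C, while mt-Co2 changed by less than 2-fold in each line. In complex V, mt-Atp6, the channel partner of the c-ring, was at 363, 931 and 1392 FPKM with DMSO and 252, 1357 and 2895 FPKM with BGJ398, and in complex III mt-Cytb was at 450, 1080 and 2863 FPKM and at 258, 1165 and 3592 FPKM. A single mitochondrial mRNA, mt-Nd3 of complex I, was lower in each line (log2 ratios -1.93, -0.46 and -1.66). The difference between the genomes was not tested, since 3 lines cannot go below p = 0.25 in an exact two-sided sign-flip test, and how far each library retained RNA without long poly(A) tails is not given in the sources used here.

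**Figure D5:**
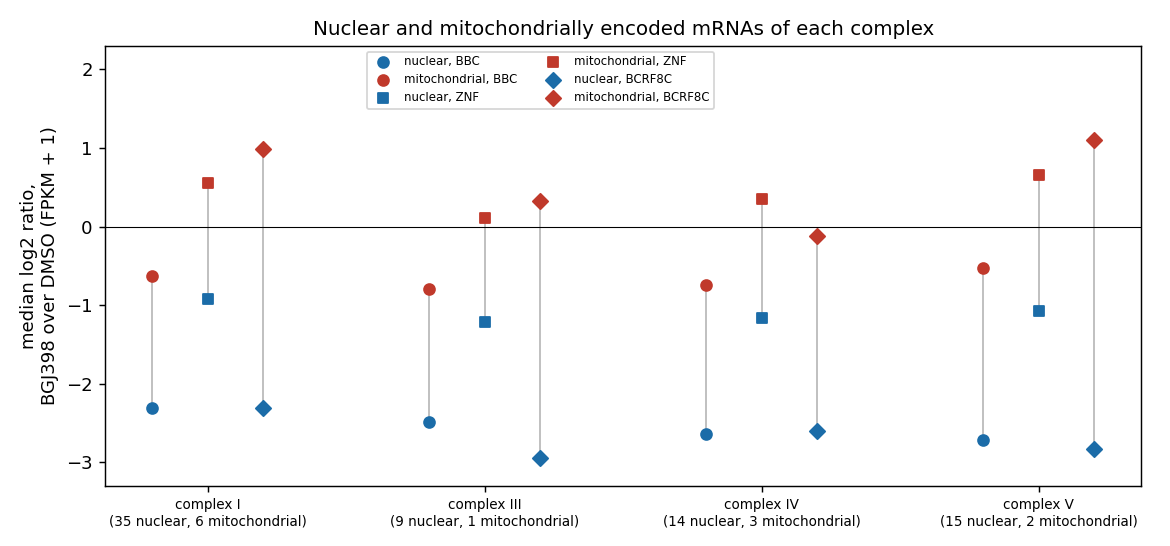
Median log2 ratio of BGJ398 over DMSO (vertical, FPKM + 1) of the nuclear (blue) and mitochondrially encoded (red) mRNAs of each complex (horizontal), with a marker shape for each line and a grey line joining the values of a line. The red marker is above the blue in each complex and line, and stands for 6, 1, 3 and 2 mRNAs in complexes I, III, IV and V.

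Other genes that serve the chain were taken from lists chosen with earlier results of these data known. Of 21 subunits of the import translocases, which bring the nuclear subunits into mitochondria, 20 fell and 0 rose, with a median log2 ratio of -2.06, and Timm13 had the largest fall (log2 ratio -2.73, 83.5 to 8.26 FPKM in BBC, 47.0 to 16.4 in ZNF and 54.1 to 3.73 in BCRF8C). Of 19 enzymes of the citric acid cycle and pyruvate dehydrogenase 14 fell and 0 rose (median -1.47), among them Idh3a (log2 ratio -2.30) and citrate synthase, Cs (log2 ratio -1.99). Of 30 assembly factors 19 fell and 0 rose (median -1.23), with Ecsit and Ndufaf4 of complex I at -2.08 and -2.01, and Nubpl, which delivers iron-sulfur clusters to complex I, at 0.55 (limma adjusted p = 0.258). These counts stand beside 30.2% of all genes that fell. Limma called 0 on these 3 lists without BBC, with 3, 2 and 5 genes at an unadjusted p under 0.05 among assembly factors, cycle enzymes and translocases, and 3, 2 and 6 without BCRF8C. It also called 0 after median-of-ratios scaling (16, 13 and 20 at an unadjusted p under 0.05), quantile normalization (10, 4 and 8) or removal of the trend on expression (7, 2 and 7).

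Of 20 regulators of respiration 13 fell and 0 rose (30.2% and 6.61% of all genes), with a median log2 ratio of -1.14. Limma called 0 of them when BBC or BCRF8C was left out (1 and 4 had p under 0.05 before adjustment), and 0 after median-of-ratios scaling (5), quantile normalization (3) or removal of the trend on expression (2). Nrf1 measured 28.9 (BBC), 33.9 (ZNF) and 23.5 FPKM (BCRF8C) with DMSO against 9.57, 18.5 and 11.1 FPKM with BGJ398 (log2 ratio -1.12, limma adjusted p = 0.0418). Gabpa (log2 ratio -1.03), Yy1 (log2 ratio -1.22), Esrra (log2 ratio -1.45) and the mitochondrial transcription factor Tfam (log2 ratio -1.55) passed the test too, while Nrf1, Gabpa and Yy1 lay at 0.06, 0.13 and 0.12 with the trend on expression removed. Myc stood at 71.3, 63.2 and 64.4 FPKM with DMSO and at 5.66, 48.6 and 20.0 FPKM with BGJ398 (log2 ratio -1.82, limma adjusted p = 0.0552). With the trend on expression removed Myc lay at -0.50. ZNF had the smallest difference in Myc, but also in Nrf1, Gabpa, Yy1 and Tfam, in most members and in the median of all genes tested (-0.37 against -0.91 in BBC and -0.76 in BCRF8C). A link between Myc and the members was not tested. Ppargc1b was at or below 1.69 FPKM in every library, and Ppargc1a at or below 1.04 FPKM except in BCRF8C, at 13.3 FPKM with DMSO and 7.95 FPKM with BGJ398.

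Among the 78 subunit genes the order of levels was largely kept between lines and the order of ratios less so. The log2 levels in DMSO correlated at Pearson r = 0.908 between BBC and ZNF, 0.934 between BBC and BCRF8C and 0.882 between ZNF and BCRF8C, and log2 levels with DMSO and BGJ398 correlated at 0.923, 0.960 and 0.882 within BBC, ZNF and BCRF8C. The log2 ratios correlated at r = 0.536 (Spearman rho 0.441) between BBC and BCRF8C, at 0.095 (0.287) between BBC and ZNF and at 0.233 (0.373) between ZNF and BCRF8C. Mean log2 ratio correlated with log2 mean level at rho = -0.234 and with transcript length at rho = 0.179, where the members had a median length of 755 nt and all genes tested 2361.5 nt. These are descriptions across genes of the same libraries, and genes are not independent replicates. The 17 genes with an NRF1 motif in a promoter window had a median log2 ratio of -2.16 (range -2.68 to -1.30) and the 47 matched genes without it -2.03 (-3.31 to -1.26), so that both ranges overlapped over most of their length.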

How the data were processed

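The authors deposited an FPKM table of 17169 entries and 6 value columns, each matched to 1 sample by its title. The tools named are TopHat2 2.0.12 and bcl2fastq, with genome NCBIM37, per the submitters' processing notes. What computed FPKM, whether strand was used, and depth are not stated in the labels, so no counting error can be given and reads of the processed pseudogenes and overlapping genes that many members have (19 members overlap another entry) may be shared. Of the genes named with values, Uqcrh, Cox6c, Atp5f1 and Atp5j also overlap another entry, which is not marked where they are described. Entry starts were raised by 1, since end minus start equalled the GENCODE vM21 gene length for 6377 of 15944 matched entries; that annotation is of another build and served only for lengths.

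The scale was log2(FPKM + 1), not rescaled, and folds on this scale understate the change of low genes. The 14232 entries averaging 1 FPKM or more were fitted with limma (version 3.58.1, R 4.3.3; intensity trend, line as a block, 2 residual degrees of freedom), two-sided with Benjamini-Hochberg adjustment, and every adjusted p comes from that fit unless another setting is named. The line pairs the libraries because both come from the same cell line, per the titles. As no label names repeat cultures, the p-values and SE reflect spread between 3 lines at 3 listed doses and not between cultures. Limma also draws each gene's variance toward that of genes of like level, so an SE is not that of the gene's own 3 ratios. The SD of the 3 log2 ratios was 1.87 for Uqcr11 (SE 0.76) and 1.83 for Atp5g1 (SE 0.69). Expression trends were lowess fits (span 0.3) within a line. Scripts were tested on simulated data. The genes, lists and tests were chosen with earlier results of these data known. Genes named with values were fixed subunits and isoforms, the most abundant member and the largest and smallest changes of each complex, and any member higher with BGJ398 in a line. Uqcrh, Ndufc1, Atp5k, Atp5l, Atp5sl, Cox4nb, Ndufb11, Ndufb3, Ndufb2, Ndufa7, Ndufa12, Ndufs5, Ndufa11, Uqcrb, Atp5o, Atp5f1 and Atp5j were named after their values were seen. Promoter sequences are from RefSeq (GRCm38.p6) and were matched by symbol. Alternatives covered scaling, the trend on expression and transcript length, pseudocount, filters, the block and leaving out each line. The values of some genes are not reported here.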

Additional observations from a re-analysis of the deposited data

Results flagged for a closer look

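Atp5s, which encodes a factor outside the complexes, differed in direction between lines. Its log2 ratio was 0.38 in BCRF8C (1.58 FPKM with DMSO and 2.36 FPKM with BGJ398) but -1.54 in BBC and -0.21 in ZNF. With 1 library per line and agent the difference was not tested.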

How the results depend on the processing

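The number of members that limma called lower, 70, ranged from 0 (without BBC) to 75 (without ZNF) over the fits that left out 1 line each, and was 8 without BCRF8C. Of all genes tested, limma called lower 0 without BBC, 4795 without ZNF and 852 without BCRF8C. It was 0 with median-of-ratios scaled libraries, 0 under quantile normalization, 0 with the trend on expression removed, 0 with the trends on expression and transcript length removed, 0 with no replicate block, and 1 with the trend removed among entries above 0 in all 6 columns (an alternative chosen after seeing the data). Of all genes tested, 1, 1, 0, 0, 1 and 59 were called lower and 3, 2, 0, 0, 6 and 353 higher in these fits. Unadjusted p under 0.05 was reached by 71, 36, 25, 20, 73 and 26 members in the same fits, with no count over all genes beside it. Other pseudocounts and filters gave 67 to 78 members called lower, beside 3901 to 5667 of all genes tested. Both highest counts came from the filter on entries above 0 in all 6 columns. Median-of-ratios scaling moved the median of all genes tested from -0.69 to -0.07 and that of the members from -1.97 to -1.28. After quantile normalization the median log2 ratio was -0.76 for all members and -0.69, -0.85, -1.28, -0.83 and -0.85 for complexes I to V. With the trend on expression removed these medians were -0.55, -0.51, -0.66, -1.08, -0.54 and -0.59, and with length as well -0.42, -0.35, -0.53, -0.95, -0.39 and -0.45, so complex III had the lowest median in each for the mean of the lines. In BBC, ZNF and BCRF8C the members at least 2-fold lower were 42, 4 and 40 after quantile normalization (16.7%, 5.63% and 19.2% of all genes tested) and 30, 3 and 30 with the trend removed (11.45%, 4.2% and 13.25%), so that in ZNF the members' 4 and 3 of 81 were no larger a share than that of all genes, and 18 (6.82%) in ZNF after median-of-ratios scaling. Values above 0 with the trend removed, and with length as well, were 0.10 and 0.0785 for Sdha, 0.10 and 0.19 for Uqcrc2, 0.035 and 0.17 for Uqcrb, 0.26 and 0.43 for Cox6c, 0.19 and 0.37 for Cox7a2l, 0.23 and 0.32 for Uqcrh, 0.26 and 0.44 for Atp5h, 0.0551 and 0.13 for Nrf1, and 0.13 and 0.0569 for Gabpa. They were 0.12 for Yy1 with the trend removed, and 0.13 for Ndufb4, 0.099 for Atp5f1, 0.072 for Ndufs5, 0.051 for Atp5sl and 0.031 for Tfam with length as well. Quantile normalization gave 0.0503 for Atp5h, 0.0335 for Gabpa and 0.0032 for Yy1. Atp5s was at 0.0332 after median-of-ratios scaling and ranged from -0.8773 (without BCRF8C) to 0.0858 (without BBC) when a line was left out. Ppargc1a was at -0.0863 with a pseudocount of 5 and -0.34 without BBC. The cause of these shifts was not tested. Depth is unknown, and 1 library per line and agent limits the precision.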
